A study of Arabidopsis thaliana with 8 samples.

Results

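The early shoot response to a wound in the root was read from the 4 arrays taken 30 min after wounding, out of 8 arrays in the series. All genes on those 4 arrays were described, and none was selected by its values. The wounded group consisted of shoots of Arabidopsis thaliana Columbia-0 seedlings, 13 days old, whose primary root had been cut with a razor blade 5 mm below the base of the shoot. The control group consisted of shoots of unwounded seedlings of the same age, ecotype and time. All seedlings, wounded and control, had grown on agar medium with 3% sucrose at 16 h of light and 8 h of darkness. Each array compared wounded with control RNA in Cy5 and Cy3, and each of 2 biological replicates was measured on 2 arrays with the dyes exchanged. The other 4 arrays compared wounded and control shoots at 360 min in the same way. How many seedlings went into an RNA sample is not given in the sources used here.

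A cut in one organ can start defence programmes in organs that were not cut. The signals known to travel through the vasculature in Arabidopsis include changes in membrane potential and in cytosolic calcium, and their arrival in leaves is followed by synthesis of jasmonate in chloroplasts and peroxisomes. Its active form, jasmonoyl-isoleucine, joins the F-box protein COI1 to JAZ repressors, which are then degraded and release MYC2 and related transcription factors. Genes for the JAZ repressors, for the synthesis of the hormone and for its breakdown are among the known targets of MYC2.

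Of 21500 genes with a probe, 19177 were tested at 30 min and 18928 had a value on all 4 arrays. Between 72.3% and 88.6% of probes were well above background in the wounded channel. Log2 ratios of wounded over control had a Pearson correlation of 0.862 between the replicate means over all genes and 0.685 to 0.817 between single arrays. Arrays with the wounded RNA in the same dye correlated at 0.817 and 0.767 across replicates, while the arrays of a dye pair correlated at 0.694 and 0.799. All 20 light harvesting and photosystem genes were well above background on every array in both channels, and their normalised intensities summed to 539334 to 635058 in wounded shoots and 550345 to 653162 in control shoots. Of 14 root marker genes 10 were well above background on all 4 arrays in wounded shoots and 9 in control shoots, with sums of only 3041 to 5882 in wounded and 3305 to 5618 in control shoots. None of the 20 and none of the 14 passed the test described next. In bulk tissue, a change in the number of cells of a type and a change in RNA per cell cannot be told apart.

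In wounded shoots 867 genes rose, which is 4.52% of those tested, and 415 fell, which is 2.16%, so that 6.69% changed in either direction (limma, Benjamini-Hochberg adjusted p under 0.05 over all genes). These shares are the background for the list and family counts below. Lists and their members were chosen with earlier results of these data known, so their counts are not separate support. The larger changes were mostly rises. At least 2-fold changes numbered 154 upward (0.803% of those tested) and 16 downward (0.0834%), and at least 4-fold changes 33 upward and 1 downward. The median log2 ratio was 0.49 among genes that rose, -0.37 among genes that fell and -0.00132 over all genes. Of the risen genes with a value on all 4 arrays, 855 of 858 were above 0 on each of them. Of such fallen genes 409 of 413 were below 0 on each, and 24.7% of all genes had 1 sign throughout. The calls were made from these same values, so this agreement largely follows from the calls and is not separate support. Fitted with replicate 2 alone or replicate 1 alone at this time, 235 and 269 genes rose and 69 and 40 fell, so the counts depend on having both replicates. Ratios of dim genes also depend on how background is treated, and were often larger on the authors' log ratios, whose values are given below for many of the genes that moved.

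**Figure D1:**
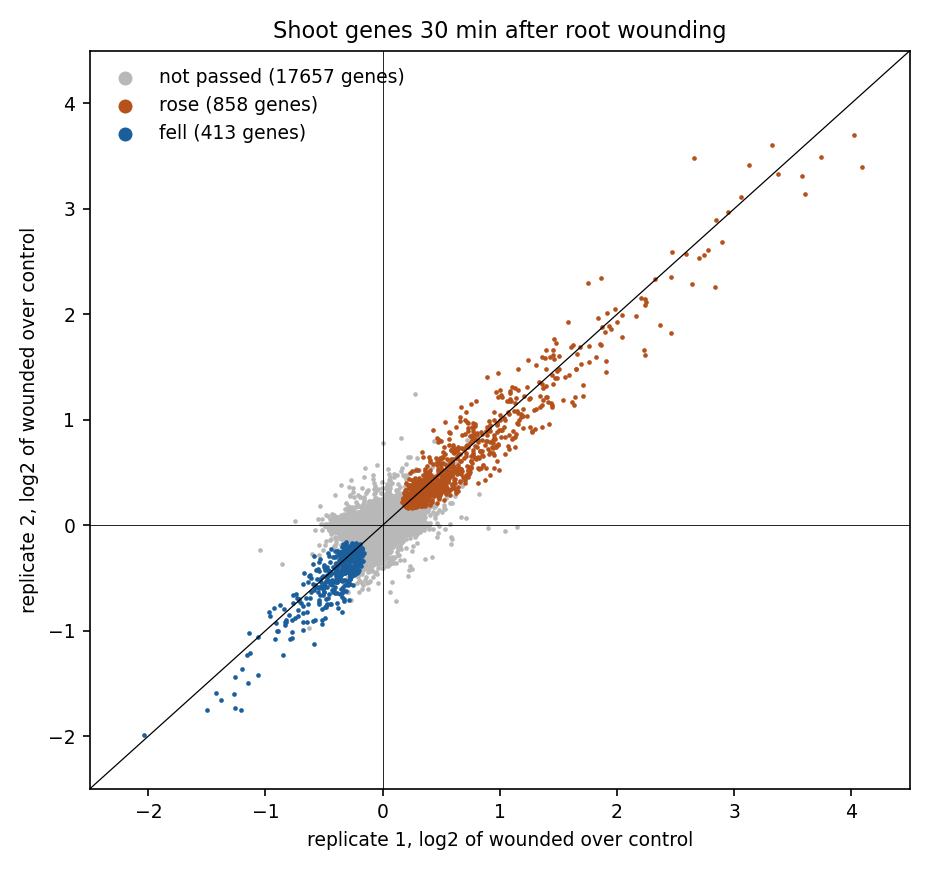
Log2 ratio of wounded over control shoots at 30 min in replicate 1 (horizontal) and replicate 2 (vertical), each point a gene and each value the mean of a dye pair. The 858 risen and 413 fallen genes with both values lie along the diagonal, with JAZ9 farthest right at 4.10 in replicate 1, and the 17657 genes that did not pass gather around 0.

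The gene with the highest mean ratio was OPR3, whose product reduces oxophytodienoic acid on the way to jasmonate. Its normalised intensity was 13388, 14519, 11670 and 12116 in the wounded channel of the 4 arrays, against 839, 878, 909 and 921 in the control channel. Wounded and control intensities were thus far apart on every array, and the log2 fold was 3.86 ± 0.23 (SD, n = 2; adjusted p = 1.99e-05), a 14.5-fold rise. The rank depends on the processing, since on the authors' log ratios JAZ1 and CYP94C1, both at 4.43, exceeded OPR3 at 4.01. JAZ9, for a JAZ repressor, had 10559, 9299, 9426 and 9888 in wounded shoots, against 578, 582, 923 and 911 in control shoots. The control was lower in replicate 1 than in replicate 2 for this gene, and the replicates differed accordingly in the log2 fold of 3.75 ± 0.49. MYC2 had 8340, 8883, 5982 and 6752 in wounded shoots, against 645, 642, 545 and 589 in control shoots, with no overlap. Its log2 fold was 3.62 ± 0.18 (adjusted p = 1.82e-05).

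All of the 30 highest ratios were at least 4.21-fold, and none had overlapping wounded and control intensities (4.58% of all genes had none). All 30 were also higher at 30 than at 360 min by the test of the difference. The 30 were picked by their 30 min ratio, and all had passed with the same sign on all 4 arrays. The lack of overlap and the difference between times thus largely follow from that choice and are not separate support. Many of the 30 encode regulators or enzymes of jasmonate and are described with their pathways. Among the others, AT5G56980, of no named function on the array, rose by 3.08 ± 0.04, with 4033, 3752, 2944 and 2826 in wounded shoots, against 529, 414, 348 and 321 in control shoots. AT2G34930, described on the array as a disease resistance family protein, rose by 2.96 ± 0.02, and by 3.95 on the authors' log ratios. CLH1, for a chlorophyllase and long known as a jasmonate-responsive gene, rose by 2.58 ± 0.01. The cytochrome P450 gene CYP96A4 rose by 2.53 ± 0.08 and AT2G43530, annotated as a putative trypsin inhibitor, by 2.18 ± 0.09. CAF1a, which encodes a deadenylase that shortens the poly(A) tails of mRNA, rose by 2.16 ± 0.11, with 1317, 1198, 753 and 716 in wounded shoots, against 307, 229, 177 and 170 in control shoots. NUDT8, for a Nudix hydrolase, rose by 2.13 ± 0.34, and EXO70H7, for a subunit of the exocyst that tethers secretory vesicles, rose by 2.07 ± 0.12.

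**Figure D2:**
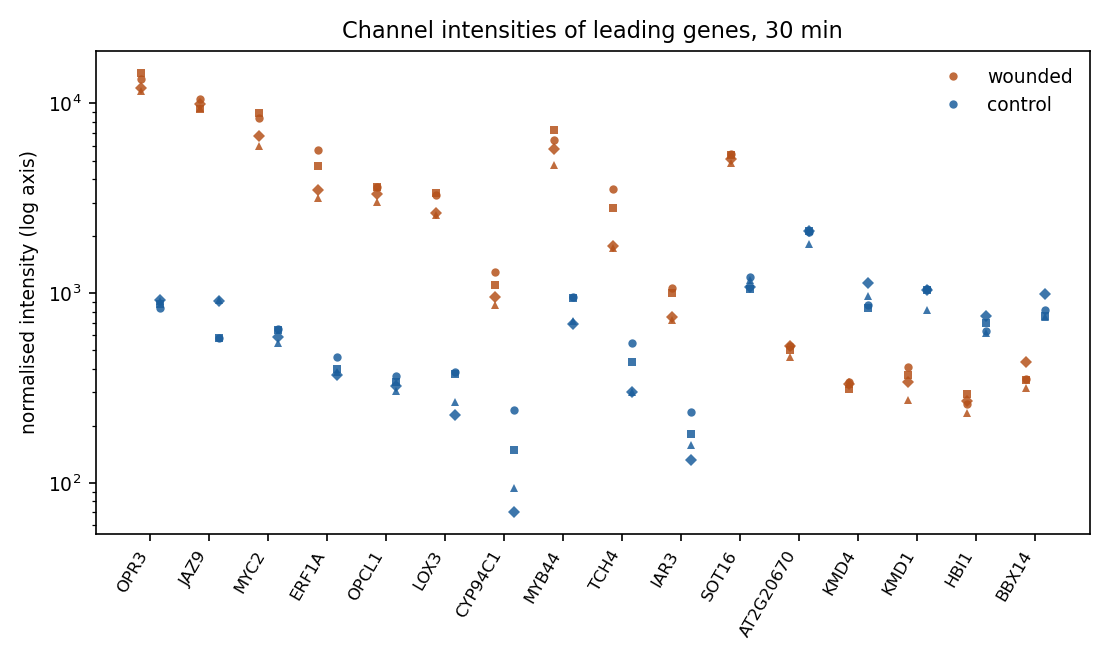
Normalised intensity on a log axis for 11 genes with high and 5 with low ratios at 30 min, wounded shoots left (orange) and control shoots right (blue). Circles and squares are the arrays of replicate 1 with the wounded RNA in Cy5 and in Cy3, and triangles and diamonds those of replicate 2; wounded and control points do not overlap for any gene shown.

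Genes for jasmonate synthesis rose at most steps. The pathway starts with a lipoxygenase acting on linolenic acid, and 4 of the 9 listed lipase, lipoxygenase and hydroperoxide lyase genes rose and 0 fell (4 and 4 without replicate 1 and without replicate 2). LOX3 was at 3.09, 3.17, 3.27 and 3.55 on the 4 arrays (log2), and LOX4 rose by 1.73 ± 0.25, or 2.38 on the authors' log ratios. LOX2, which is known for the bulk of the jasmonate made in wounded leaves, rose by 1.53 ± 0.11 from a higher level, with 9836, 10087, 8184 and 8543 in wounded shoots, against 3662, 3590, 2732 and 2745 in control shoots. LOX6, the lipoxygenase known for the earliest jasmonate in Arabidopsis leaves, was at 0.18 and did not pass, nor did LOX1 at -0.08, LOX5 at 0.09 and the lipase genes DAD1 at 0.02 and DGL at 0.03. HPL1, for the hydroperoxide lyase that sends the same substrate to leaf volatiles, rose by 1.32 ± 0.23, and by 2.18 on the authors' log ratios.

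From allene oxide onward 8 of 11 tested genes rose and 0 fell, with a list median of 0.50. AOS, for allene oxide synthase, had 8414, 6484, 10892 and 11554 in wounded shoots, against 1971, 1732, 2999 and 2891 in control shoots, and a log2 fold of 1.96 ± 0.05 (adjusted p = 2.32e-05). Its replicates differed in level but hardly in ratio. The allene oxide cyclase genes rose less, AOC2 by 0.86 ± 0.15, AOC3 by 0.50 ± 0.03 and AOC4 by 0.42 ± 0.05, and the AOC3 control exceeded background clearly on only 2 of 4 arrays, with 1.49 on the authors' log ratios. OPCL1, whose product loads the precursor with coenzyme A in the peroxisome, rose by 3.35 ± 0.03, with hardly any spread between the replicates. In the shortening of the side chain that follows, the acyl-CoA oxidase gene ACX1 rose by 0.32 ± 0.01, while ACX5 at -0.03, the thiolase gene KAT2 at -0.08 and the importer gene PXA1 at 0.01 did not pass. JAR1, for the enzyme that joins jasmonate to isoleucine, rose by 0.57 ± 0.06. Of the 8 genes, 3 passed without replicate 1 and 3 without replicate 2, among them OPR3, OPCL1 and AOS, while the AOC genes, ACX1 and JAR1 needed both replicates.

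**Figure D3:**
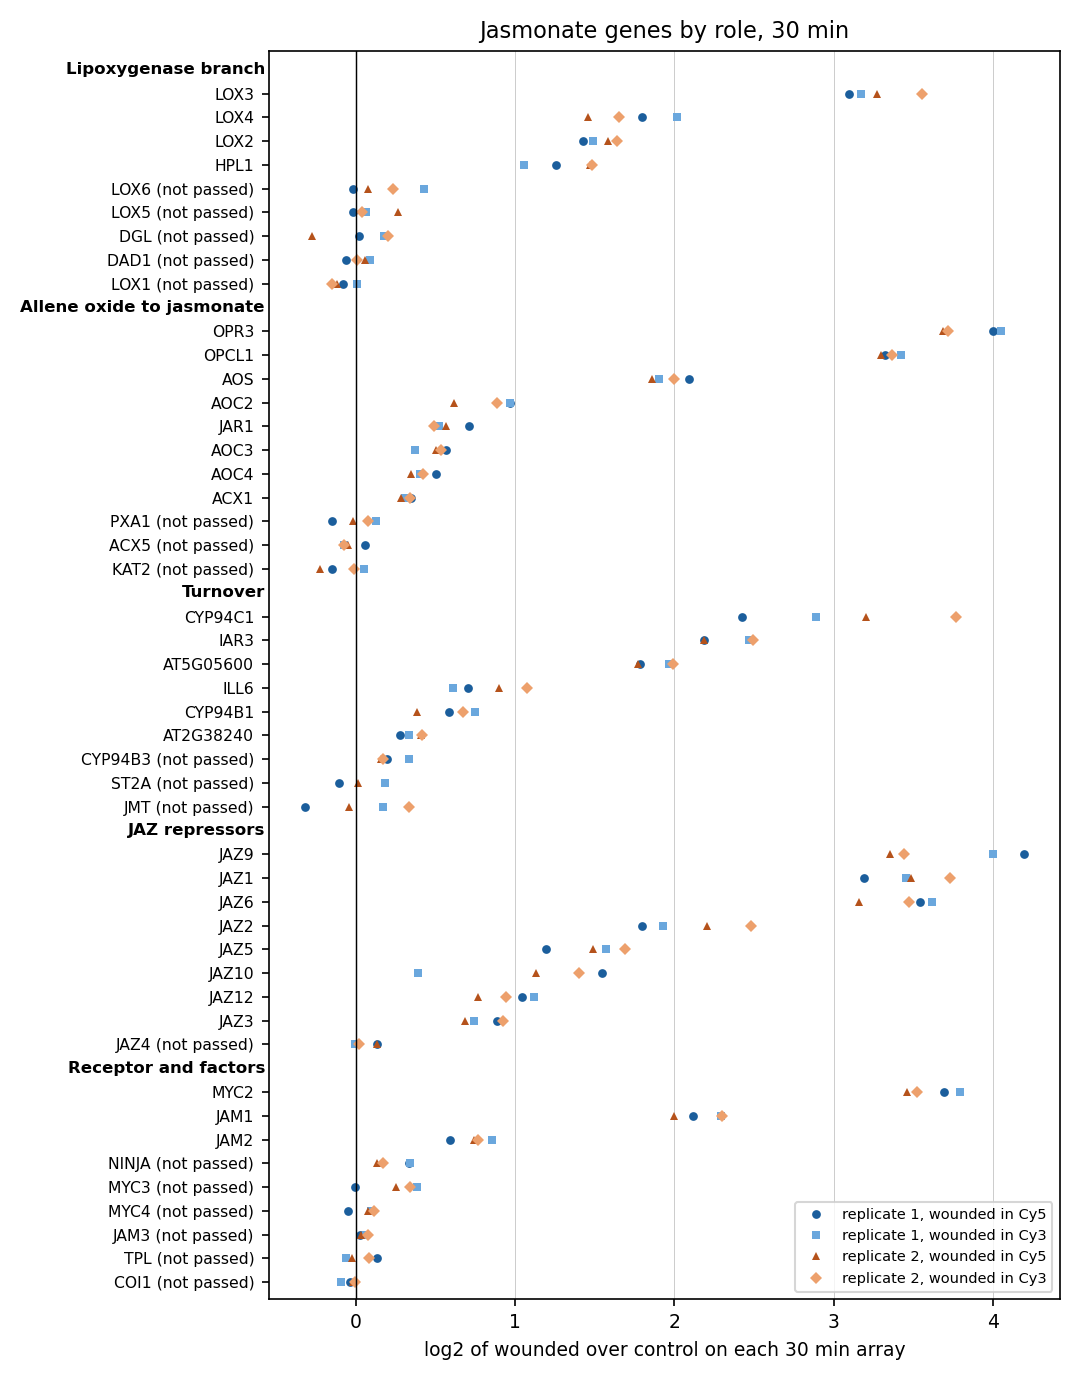
Log2 ratio of wounded over control on each of the 4 arrays at 30 min (horizontal) for jasmonate genes, grouped by role and ordered by mean; colours and shapes mark replicate and dye. OPR3, OPCL1, LOX3, CYP94C1, JAZ9, JAZ1, JAZ6 and MYC2 lie above 2.4 on every array, and COI1, KAT2, LOX1 and other genes that did not pass lie around 0.

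Genes that remove jasmonate rose as well. Of 9 tested turnover genes 6 rose and 0 fell (4 and 4 without replicate 1 and without replicate 2), with a list median of 0.60. CYP94C1, for a cytochrome P450 that oxidises jasmonoyl-isoleucine, had 1300, 1103, 870 and 960 in wounded shoots, against 243, 149, 94.4 and 70.6 in control shoots. The ratio was larger in replicate 2, where the control was dimmer, and the log2 fold was 3.07 ± 0.59 (adjusted p = 0.00235). It was 4.43 on the authors' log ratios and 2.37 without background correction. IAR3, for an amidohydrolase that cleaves amino acid conjugates of auxin and of jasmonate, had 1071, 1005, 721 and 745 in wounded shoots, against 236, 182, 159 and 132 in control shoots, and rose by 2.33 ± 0.01, or 3.06 on the authors' log ratios. ILL6, for a related amidohydrolase, rose by 0.82 ± 0.23, its control exceeding background clearly on 1 of 4 arrays, and was at 2.37 on the authors' log ratios. The dioxygenase family genes AT5G05600 and AT2G38240 rose by 1.88 ± 0.003 and 0.36 ± 0.08, with 2.94 and 1.27 on the authors' log ratios. CYP94B1 rose by 0.60 ± 0.10 but did not pass without background correction, and CYP94B3 at 0.21, the methyltransferase gene JMT at 0.04 and the sulfotransferase gene ST2A at 0.04 did not pass.

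Most of the JAZ repressor genes rose. Of 12 listed JAZ genes 9 were on the array, and 8 of these rose and 0 fell, 6 of them at least 2-fold, with a list median of 1.49 (7 and 7 rose without replicate 1 and without replicate 2). JAZ1 was at 3.19, 3.45, 3.48 and 3.73, and JAZ6 at 3.54, 3.62, 3.16 and 3.47 on the 4 arrays (log2). JAZ2 followed with a 4.30-fold rise, JAZ5 at 1.49 ± 0.14, JAZ12 at 0.97 ± 0.16 and JAZ3 at 0.81 ± 0.01. Neither replicate stood apart from the other in all of them, since JAZ9 was higher in replicate 1 and JAZ2 in replicate 2. JAZ10 had 1.55, 0.39, 1.13 and 1.40, with 1 array of replicate 1 below the others and overlapping intensities, and did not pass with either replicate left out. JAZ4 was at 0.07. The JAZ5 control exceeded background clearly on 1 of 4 arrays, and on the authors' log ratios JAZ5 was at 3.34, JAZ3 at 1.495, JAZ1 at 4.43 and JAZ2 at 2.98.

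Of the 9 genes for the receptor, the corepressors and the bHLH factors, 3 rose and 0 fell. Beside MYC2 these were JAM1, at 2.11, 2.29, 2.00 and 2.30 on the 4 arrays, and JAM2, at 0.74 ± 0.02 and at 1.35 on the authors' log ratios. Both encode bHLH factors that compete with MYC2 at its targets and lower jasmonate responses. JAM2 did not pass with either replicate left out. The relatives MYC3 at 0.24, MYC4 at 0.06 and JAM3 at 0.05 did not pass, and the receptor gene COI1 was at -0.04, the adaptor gene NINJA at 0.25 and the corepressor gene TPL at 0.04.

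Transcription factor genes of several stress families rose with these. Of 16 tested ERF genes of groups VIII, IX and X, which bind the ethylene-responsive GCC box, 11 rose and 0 fell (6 and 7 without replicate 1 and without replicate 2), with a median of 0.56. ERF1A had 5712, 4703, 3189 and 3478 in wounded shoots, against 459, 397, 384 and 370 in control shoots, and a log2 fold of 3.37 ± 0.32. ERF13 rose by 2.55 ± 0.41, ERF2 by 2.46 ± 0.25, RRTF1, for a factor of redox signalling, by 1.73 ± 0.04, and ERF11, for a repressor, by 1.19 ± 0.32. Replicate 1 gave the larger ratio in all 5, by little in RRTF1. On the authors' log ratios ERF2 was at 3.06 and RRTF1 at 2.57. ORA47, which encodes an activator of jasmonate synthesis genes, rose by 1.22 ± 0.04, though its control exceeded background clearly on only 2 of 4 arrays, and was at 3.08 on the authors' log ratios. The cold-response genes CBF2 and CBF3 were lower, at -0.29 ± 0.12 and -0.48 ± 0.21, but neither passed without background correction or with median centring, and CBF3 also not on the authors' log ratios, where they were at -0.64 and -0.92.

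Of MYB44 and its closest relatives, regulators of stress and hormone responses, MYB44, MYB73 and MYB77 rose by the most. MYB44 had 6449, 7283, 4747 and 5768 in wounded shoots, against 960, 949, 713 and 691 in control shoots, with a log2 fold of 2.87 ± 0.04 (adjusted p = 8.46e-06). MYB73 rose by 1.65 ± 0.15 and MYB77 by 1.52 ± 0.27. The fourth member, MYB70, was at 0.24 ± 0.02 and passed in 8 of 18 alternative analyses. MYB34, an activator of indole glucosinolate synthesis, rose by 1.28 ± 0.23. These were the 5 of 13 listed stress MYB genes that rose, and 0 fell. MYB51 at 0.10 and MYB122 at 0.13, which act with MYB34, and MYB28 at -0.14 and MYB29 at -0.06, which activate aliphatic glucosinolate synthesis, did not pass. MYB95, which no list held, was at 2.76, 2.73, 2.50 and 2.63, with a mean of 3.29 on the authors' log ratios.

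WRKY18, for a repressor of basal defence, was at 2.78, 3.02, 2.61 and 2.76, with a mean of 3.38 on the authors' log ratios, and 8 of 18 listed WRKY genes rose and 0 fell (3 and 3 without replicate 1 and without replicate 2). Its partner WRKY40 was at 1.66 on the evidence of replicate 2 alone and at 2.89 on the authors' log ratios, and did not pass with outlier spots kept, whereas WRKY60, the third of that group, was at -0.18. WRKY33, required for camalexin and resistance to fungi, rose by 0.83 ± 0.04, or 1.35 on the authors' log ratios, but passed with neither replicate left out, while WRKY53 at -0.07, WRKY6 at -0.16 and WRKY75 at 0.02 did not pass. Over all 61 tested genes with a WRKY symbol, 8 rose and 1 fell, with a median of 0.01. Of the NAC genes of stress 6 of 12 rose and 1 fell (2 and 3 rose without replicate 1 and without replicate 2), with ANAC019, a target of MYC2, at 1.31 ± 0.13 and ANAC081 (ATAF2) at 1.08 ± 0.27. ANAC029, a regulator of leaf senescence, was the one that fell, at -0.38 ± 0.14, but it passed with neither replicate left out and was at -0.75 on the authors' log ratios. Among zinc finger genes ZAT10 rose by 2.69 ± 0.12, or 3.42 on the authors' log ratios, though not past the threshold without replicate 1, and 4 of 9 listed ZAT and AZF genes rose in all (3 and 1 without replicate 1 and without replicate 2). The CCCH zinc finger gene SZF1 rose by 1.79 ± 0.11, one of 2 of 9 CCCH and BT genes that rose (0 and 1 without replicate 1 and without replicate 2), while ATCTH, another CCCH gene, fell to 0.359 of the control, with log2 ratios of -1.29, -1.12, -1.88 and -1.63.

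Genes of calcium and kinase signalling rose more often by less than 2-fold than by more. Calmodulin-like proteins bind calcium and pass its signal on, and 9 of 18 listed genes for them rose and 0 fell (5 and 6 without replicate 1 and without replicate 2). CML38 had 595, 420, 438 and 401 in wounded shoots, against 171, 112, 139 and 118 in control shoots, and a log2 fold of 1.79 ± 0.10, with 2.86 on the authors' log ratios. TCH3 rose by 1.43 ± 0.01 and TCH2 by 1.12 ± 0.09, both known for induction by touch. CML39 was not well above background in control shoots on any of the 4 arrays, so that only a bound of at least 1.63-fold can be given (adjusted p = 0.00425). CBL1, for a calcineurin B-like sensor, rose by 1.22 ± 0.02, with 1.92 on the authors' log ratios, and CIPK9, for a kinase of the family that such sensors control, by 1.12 ± 0.05, whereas CIPK5 fell, at -0.84 ± 0.22. Of the 19 listed genes for calcium pumps, calcium-dependent kinases and calmodulin-binding factors 10 rose and 0 fell, but 1 passed without replicate 1 and 1 without replicate 2. CPK28, for a kinase known to limit immune signalling, rose by 1.17 ± 0.05, the pump gene ACA1 by 0.97 ± 0.02 and CPK29 by 0.70 ± 0.03, with CPK29 at 1.38 on the authors' log ratios.

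Of 17 tested genes for MAP kinases, their upstream kinases and phosphatases 9 rose and 0 fell (3 and 2 without replicate 1 and without replicate 2). MKK9 had 583, 560, 423 and 434 in wounded shoots, against 265, 210, 239 and 226 in control shoots, and rose by 1.08 ± 0.28. MKK5 and MKK4, whose products activate MPK3 and MPK6, rose by 0.40 ± 0.04 and 0.31 ± 0.01, with MKK4 at 0.49 on the authors' log ratios. MPK3 was at 0.66 on the evidence of replicate 2 alone and MPK6 at 0.04. AP2C1, for a phosphatase that inactivates such kinases, rose by 0.69 ± 0.18, and MAPKKK17 by 0.67 ± 0.06, with 1.59 and 1.99 on the authors' log ratios.

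Receptor genes for danger peptides rose, while the genes for the peptides did not pass. PEPR1, which encodes a receptor of Pep peptides, had 846, 701, 582 and 612 in wounded shoots, against 369, 306, 288 and 269 in control shoots, with a log2 fold of 1.15 ± 0.07. SOBIR1, for a receptor kinase that partners receptor-like proteins, rose by 0.89 ± 0.10 and PEPR2 by 0.43 ± 0.02, with PEPR2 at 1.22 on the authors' log ratios. In this list 5 of 13 rose and 0 fell, and PEPR1 alone passed without replicate 1 or without replicate 2. The peptide precursor genes PROPEP1 at 0.15 and PROPEP2 at 0.03 and the flagellin receptor gene FLS2 at 0.05 did not pass. Of 10 tested genes for channels, proton pumps and oxidases of long-distance signalling, 1 rose: RBOHD, for the NADPH oxidase of the reactive oxygen wave, at 0.85, 0.75, 1.13 and 1.23. Replicate 2 gave the larger ratio, the call was lost without replicate 2, and the value was 1.64 on the authors' log ratios. The glutamate receptor-like genes GLR3.3 at 0.18 and GLR3.6 at -0.21 and the vacuolar channel gene TPC1 at -0.09 did not pass. Of 13 tested ethylene genes 15.4% rose and 7.69% fell, against 4.52% and 2.16% of all genes. ACS6, for the ACC synthase of ethylene synthesis, rose by 0.77 ± 0.13, one of 2 of 13 ethylene genes that rose (1 and 2 without replicate 1 and without replicate 2), with 1.34 on the authors' log ratios, and EIL1, for an ethylene-response factor, fell, at -0.48 ± 0.07.

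Genes for the core steps from tryptophan to indole glucosinolates rose together. Indole glucosinolates are sulfur-rich defence compounds of the cabbage family, made from tryptophan through an aldoxime, joined to sulfur, glucosylated and finally sulfated with PAPS as the donor. Of 14 listed genes 7 rose, each at least 2-fold, and 0 fell (7 and 6 without replicate 1 and without replicate 2). All 7 are given here in the order of the pathway, a choice made after the values were seen. CYP79B2, for the first enzyme, had 882, 863, 953 and 817 in wounded shoots, against 339, 324, 437 and 330 in control shoots, and rose by 1.31 ± 0.13. CYP79B3, its duplicate, rose by 1.28 ± 0.08, and CYP83B1, for the next oxidation, by 1.52 ± 0.08, with no overlap between wounded and control intensities in either. GGP1, which processes the glutathione conjugate, rose by 1.34 ± 0.01, and the lyase gene SUR1 by 1.00 ± 0.001. The glucosyltransferase gene UGT74B1 was at 1.61 in replicate 2, and its only usable array in replicate 1 gave 1.76. SOT16, for the final sulfotransferase, had 5383, 5370, 4861 and 5091 in wounded shoots, against 1223, 1054, 1181 and 1072 in control shoots, with a log2 fold of 2.19 ± 0.07 (adjusted p = 1.82e-05).

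Ring modification, breakdown and camalexin genes did not pass. The genes that modify the indole ring, CYP81F1, CYP81F2, CYP81F3 and CYP81F4, were at 0.17, 0.19, -0.11 and 0.37, the myrosinase gene PEN2 was at 0.10, and the camalexin genes CYP71A13 and CYP71B15 were at 0.08 and 0.01. In aliphatic glucosinolate synthesis, which starts from methionine, 4 of 11 rose and 0 fell (2 and 2 without replicate 1 and without replicate 2). Within this list they belong to the last steps. They were the sulfotransferase genes SOT17 at 1.12 ± 0.11 and SOT18 at 0.77 ± 0.02, the oxygenase gene FMO GS-OX1 at 0.82 ± 0.08 and the side chain gene AOP2 at 0.66 ± 0.01. The listed genes of earlier steps MAM1 at -0.06, CYP79F1 at 0.07 and CYP83A1 at 0.01 did not pass. The list does not hold GGP1, SUR1 and UGT74B1, which rose as given above, so it does not cover every step. SOT16, SOT17 and SOT18 are close relatives, and their probes may take up each other's signal.

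Precursor pathways rose in part. Of 19 tested genes of the shikimate and tryptophan pathways 7 rose and 0 fell (3 and 2 without replicate 1 and without replicate 2). ASA1, for the regulated anthranilate synthase step, had 831, 693, 611 and 553 in wounded shoots, against 413, 311, 269 and 247 in control shoots, and rose by 1.13 ± 0.07. AT2G04400, annotated as indole-3-glycerol phosphate synthase, rose by 0.67 ± 0.05, the tryptophan synthase gene TSB2 by 0.65 ± 0.06 and DHS1, for the first enzyme of the shikimate pathway, by 0.64 ± 0.005. Its paralogue DHS2 was at -0.01 and ASA2 at 0.04, and neither passed. The chorismate mutase genes CM1 and CM2, which lead to phenylalanine, were at -0.06 and 0.18. Among sulfate genes 6 of 16 rose and 0 fell (3 and 3 without replicate 1 and without replicate 2). APS3, for an ATP sulfurylase, rose by 1.35 ± 0.01, with 786, 562, 521 and 564 in wounded shoots, against 308, 218, 217 and 212 in control shoots. The APS kinase genes APK2 and APK1, whose enzymes make PAPS, rose by 1.14 ± 0.07 and 0.86 ± 0.01, and SAL1, whose product degrades the PAP left after sulfation, by 0.89 ± 0.01. APR1, on the branch to cysteine, rose by 0.43 ± 0.07, while APR2 at -0.04, APK3 at 0.05, APK4 at -0.06 and the glutathione synthesis gene GSH1 at 0.08 did not pass.

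**Figure D4:**
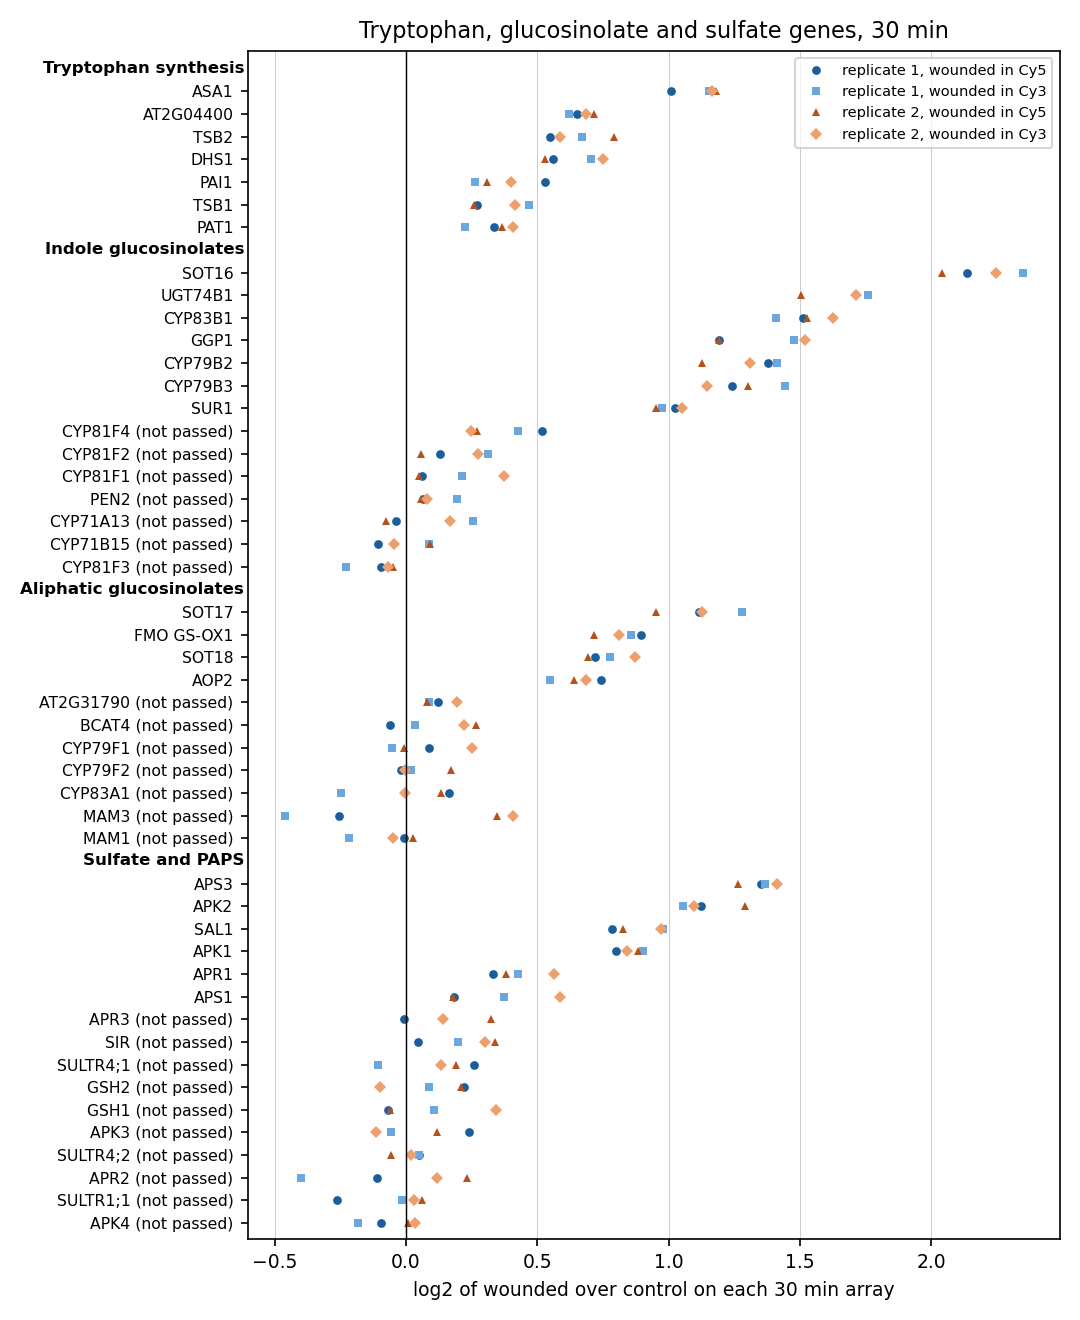
Log2 ratio of wounded over control on each of the 4 arrays at 30 min (horizontal) for the tryptophan genes that passed and for all tested indole glucosinolate, aliphatic glucosinolate and sulfate genes; colours and shapes mark replicate and dye. The 7 core genes of indole glucosinolates lie between 0.95 and 2.35 on every array with a usable value, and the CYP81F and camalexin genes lie near 0.

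In the ascorbate and glutathione list 4 of 16 rose and 0 fell, and all 4 passed without replicate 1 and without replicate 2. DHAR1, for a dehydroascorbate reductase, had 7042, 6920, 5349 and 5953 in wounded shoots, against 2408, 2505, 1977 and 2072 in control shoots, with a log2 fold of 1.49 ± 0.02. VTC5 rose by 1.11 ± 0.27 and VTC1 by 0.93 ± 0.03, both in the synthesis of ascorbate, and MDAR2 by 0.60 ± 0.003, which encodes a monodehydroascorbate reductase. VTC2, the paralogue of VTC5, was at -0.03, and the ascorbate peroxidase genes APX1 and APX2 were at 0.26 and 0.07.

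Jasmonate is also known for raising storage and defence proteins, and a minority of their genes had risen at 30 min. Of 18 listed genes 5 rose and 0 fell, with 2 passing without replicate 1 and 2 without replicate 2. VSP2, for a vegetative storage protein, had 1449, 1319, 789 and 855 in wounded shoots, against 649, 583, 390 and 433 in control shoots, and a log2 fold of 1.08 ± 0.12. VSP1 rose by 1.62 ± 0.21, with 2.81 on the authors' log ratios, CORI3 by 0.80 ± 0.02 and JR1 by 0.73 ± 0.01. The defensin gene PDF1.2A at -0.03, the thionin gene THI2.1 at -0.02 and the salicylate markers PR1 at 0.01 and PR2 at 0.08 did not pass. In abscisic acid genes 2 of 20 rose and 1 fell, which were RD20, for a caleosin, at 1.90 ± 0.09 (2.55 on the authors' log ratios), BG1, for a glucosidase that frees abscisic acid, at 0.59 ± 0.01, and ABA2 at -0.26 ± 0.06, with 0 passing with either replicate left out, and ABA2 also not on the authors' log ratios, at -0.39. NCED3, the key synthesis gene under drought, was at -0.08. In this abscisic acid list 10% rose and 5% fell, against 4.52% and 2.16% over all genes.

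Genes that fell included some known to be repressed by sugar and induced in darkness. They were counted in a list chosen with earlier results of these data known, so the count is not separate support. Of 24 listed genes 9 fell and 3 rose (5 and 4 fell without replicate 1 and without replicate 2), with a list median of -0.26. That median was -0.13 in replicate 1 and -0.40 in replicate 2. AT2G20670, the gene with the lowest ratio of all, had 529, 502, 461 and 527 in wounded shoots, against 2092, 2137, 1810 and 2118 in control shoots. The log2 fold was -2.01 ± 0.03 (adjusted p = 0.00137), with replicate means of -2.04 and -1.99. The gene passed with neither replicate left out, in fits that took its spread from 360 min, where its SD was 0.47. AT1G23390, annotated as a kelch repeat F-box gene, had 788, 818, 607 and 690 in wounded shoots, against 2337, 2217, 2078 and 2284 in control shoots, and fell by 1.63 ± 0.18 on the log2 scale.

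KMD1, KMD3 and KMD4 belong to a family of kelch F-box proteins that target regulators of the cytokinin response and phenylpropanoid enzymes for degradation. KMD4 had 340, 314, 332 and 333 in wounded shoots, against 866, 834, 970 and 1134 in control shoots, with a log2 fold of -1.52 ± 0.20. KMD1 had 407, 372, 274 and 342 in wounded shoots, against 1050, 1037, 816 and 1038 in control shoots, with -1.50 ± 0.12. KMD3 was at -0.85 ± 0.10, and KMD2 at -0.13 did not pass. The dormancy gene DRM1 was at -0.42 ± 0.20 and the trehalose phosphate synthase genes TPS8 and TPS11 were at -0.58 ± 0.28 and -0.68 ± 0.27, with replicate 2 the lower in each. TPS8 passed with neither replicate left out, nor on the authors' log ratios, without background correction, with median centring or with outlier spots kept. Not all starvation genes moved this way, since DIN1 at -0.37 and DIN10 at -0.47 did not pass, and ASN1, a hallmark of darkness, was at 0.27 ± 0.13. EXO and EXL2, for secreted proteins of growth at low carbon, rose by 0.81 ± 0.16 and 0.85 ± 0.21, and of the 3 that rose 1 passed without replicate 1 and 0 without replicate 2.

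Others of the 20 lowest came from several families. BT2, a regulator of responses to sugar, nitrate and hormones, was at -1.32 ± 0.25. AT5G61590, known as DEWAX, a repressor of wax synthesis, was at -1.28 ± 0.12 and MYB16, an activator of cuticle formation, at -0.95 ± 0.07. The chloroplast J-domain genes J8 and J11 were at -1.24 ± 0.26 and -1.06 ± 0.01, and J11 had 346, 329, 227 and 261 in wounded shoots, against 759, 660, 485 and 532 in control shoots. BBX14, for a B-box zinc finger protein, had 353, 349, 316 and 431 in wounded shoots, against 815, 754, 752 and 992 in control shoots, with -1.19 ± 0.05. MYBL2, for a repressor of anthocyanin synthesis, was at -1.04 ± 0.27 and NAC083 fell to 0.501 of the control. Of the 20 lowest, 12 passed without replicate 1 and 12 without replicate 2, and BT2, AT5G61590 and HBI1 passed in neither fit.

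Growth genes fell modestly. Small auxin up RNAs promote cell expansion, and of 11 tested genes with a SAUR symbol 8 fell and 0 rose, with a median of -0.57. SAUR63 was at -0.52, -0.77, -0.96 and -0.87 on the 4 arrays, SAUR23 at -0.57, -0.52, -0.73 and -0.77, and SAUR20 at -0.39, -0.58, -0.69 and -0.84 (a mean of -0.97 on the authors' log ratios). The ratios were below 0 on every array in these 3 genes. SAUR15 at -0.11, SAUR36 at 0.05 and AT5G01830, which carries the symbol SAUR21, at 0.11 did not pass. SAUR19, SAUR20, SAUR22, SAUR23 and SAUR24 are near-identical neighbours whose probes may share signal, so the 8 are not 8 separate observations. Without replicate 1, 3 of them passed, and 0 without replicate 2.

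Of 12 tested bHLH factors that promote or oppose cell elongation 7 fell and 0 rose, with a median of -0.27 (1 and 0 without replicate 1 and without replicate 2). HBI1, an activator of elongation that is known to dampen immunity, had 260, 293, 234 and 269 in wounded shoots, against 630, 695, 618 and 755 in control shoots, and a log2 fold of -1.35 ± 0.13 (adjusted p = 0.00154). PRE1 was at -0.33, -0.46, -0.66 and -0.81, lower in replicate 2, with a mean of -0.89 on the authors' log ratios. BEE1, BEE2 and BEE3, early genes of brassinosteroid response, were at -0.44 ± 0.09, -0.52 ± 0.17 and -0.53 ± 0.01, and at -0.85, -1.04 and -1.33 on the authors' log ratios, but BEE2 and BEE3 did not pass without background correction. The phytochrome-interacting factor gene PIF5 was at -0.22 ± 0.01, while PIF4 at -0.16 and PIF3 at 0.14 did not pass. None of the 9 brassinosteroid synthesis and turnover genes passed, with the lowest, CPD, at -0.21.

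Cytokinin response genes fell in part, 6 of 18 lower and 1 higher. The type-A response regulators, which are switched on by cytokinin and restrain its signal, made up the 6. ARR9 had 358, 328, 188 and 224 in wounded shoots, against 562, 538, 351 and 427 in control shoots, and a log2 fold of -0.80 ± 0.17. The levels of the replicates overlapped between wounded and control shoots, while the ratio was below 0 on every array. ARR4 was at -0.56 ± 0.07 and ARR7 at -0.50 ± 0.30, which did not pass without background correction or with outlier spots kept, and ARR15 at -0.38 ± 0.07, with -0.71 on the authors' log ratios. ARR8 was not well above background in wounded shoots on any array, and its fall is given as at least 1.18-fold. Among other alternatives, ARR8 did not pass without background correction, with outlier spots kept or with the wounded RNA in either dye alone. Without replicate 1, 1 of the 6 passed, and without replicate 2, 0 did. In the auxin list 4 of 23 fell and 2 rose. IAA4 had 329, 388, 352 and 382 in wounded shoots, against 636, 627, 658 and 726 in control shoots, with a log2 fold of -0.87 ± 0.07, while IAA6 rose by 0.81 ± 0.18, with 1.87 on the authors' log ratios. Of the auxin genes, 1 fell and 0 rose without replicate 1, and likewise without replicate 2.

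**Figure D5:**
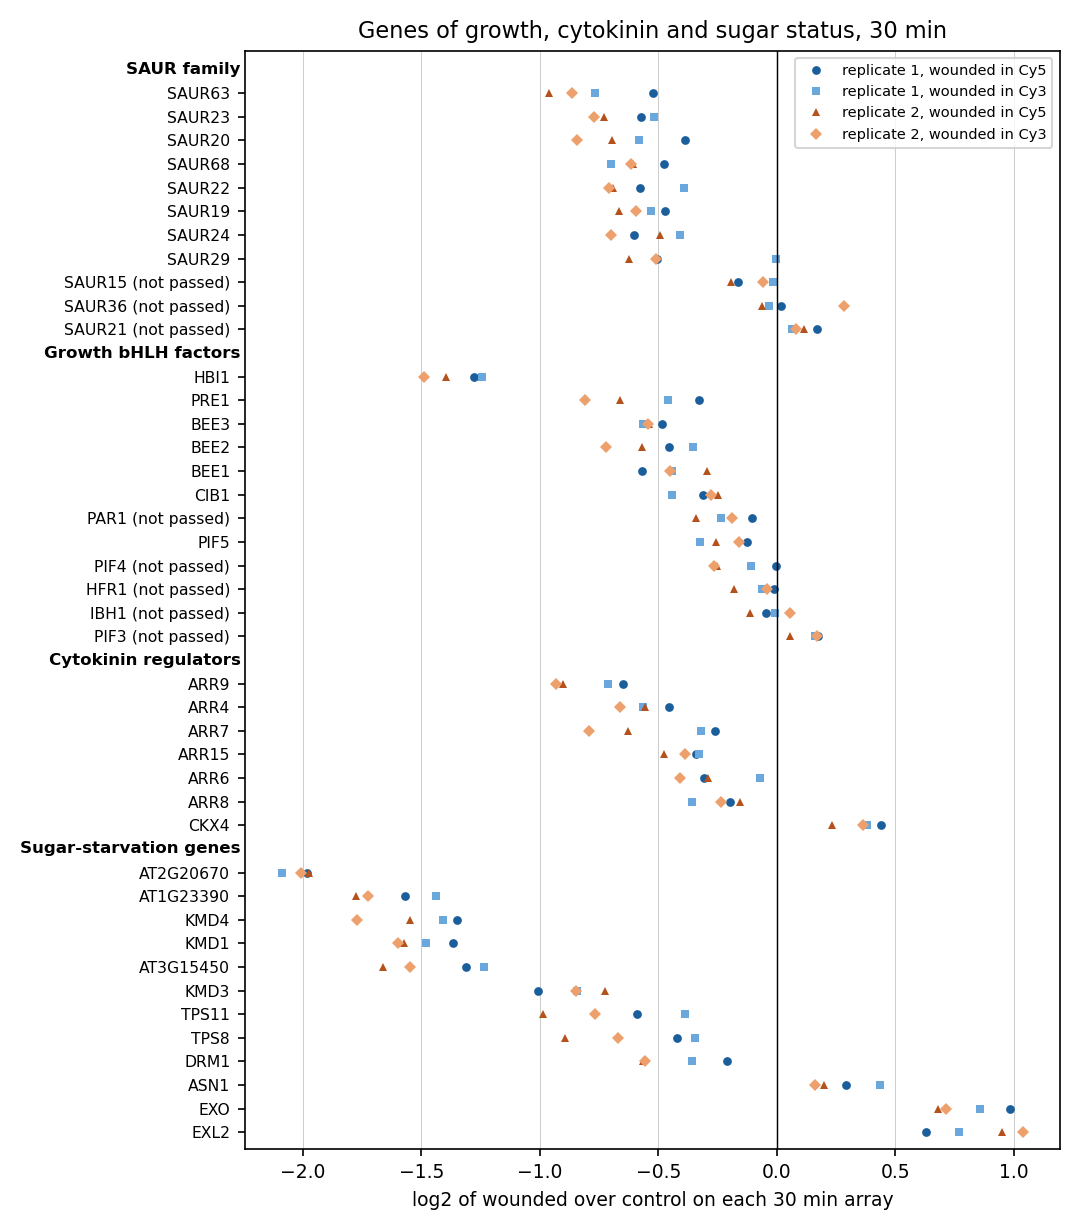
Log2 ratio of wounded over control on each of the 4 arrays at 30 min (horizontal) for the 11 SAUR genes, the 12 growth bHLH genes, and the cytokinin and sugar-starvation genes that passed; colours and shapes mark replicate and dye. The 8 SAUR genes that fell lie below 0 on every array, and AT2G20670 lies near -2.0 on all 4.

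Cell wall genes went both ways. Of 23 tested expansin and xyloglucan endotransglucosylase genes 3 rose and 3 fell (1 and 2 rose and 0 and 0 fell without replicate 1 and without replicate 2). TCH4, a touch-induced xyloglucan endotransglucosylase gene, had 3536, 2800, 1735 and 1764 in wounded shoots, against 543, 433, 302 and 302 in control shoots, and rose by 2.62 ± 0.11. XTH18 rose by 0.87 ± 0.10 and the expansin-like gene EXLA1 by 0.48 ± 0.21. The expansin genes EXPA8, EXPA1 and EXPA5 fell, at -0.63 ± 0.20, -0.52 ± 0.24 and -0.30 ± 0.08, and EXPA1 and EXPA5 missed the threshold when tested from the authors' log ratios.

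In several programmes of the shoot few or no genes passed at this time, against 4.52% risen and 2.16% fallen over all genes. The light harvesting and photosystem genes lay between -0.15 and 0.05 and the root markers between -0.11 and 0.09. Of 14 clock genes 1 fell, ELF3 at -0.24 ± 0.01, and of 15 heat shock genes 2 rose, HSFA8 at 0.45 ± 0.14 and HSFB2A at 0.41 ± 0.01, while HSP101 at 0.02 and HSP90.1 at 0.01 did not pass. Of 18 phenylpropanoid and anthocyanin genes the regulators changed, PAP1 (AT1G56650) at 0.97 ± 0.03, or 1.60 on the authors' log ratios, and MYBL2 as given above, while PAL1 at 0.10, CHS at -0.19 and DFR at -0.08 did not pass. In nitrate genes 1 of 17 rose and 2 fell, with LBD37, a repressor of nitrogen uptake and anthocyanin genes, at -0.90 ± 0.10. Among 16 reference genes 1 fell, UBQ10 at -0.50 ± 0.01, and ACT2 at 0.07, GAPC2 at 0.03 and PP2AA3 at 0.03 did not pass. ELF3 was at -0.38, HSFA8 at 0.79 and HSFB2A at 0.70 on the authors' log ratios, and ELF3 and HSFB2A did not pass without background correction. Of the genes of this paragraph that passed, MYBL2 alone did so without replicate 1 and 1 heat shock gene without replicate 2.

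Set against 360 min, most of the genes with a large early change had a different ratio at 30 min. The log2 ratio was higher at 30 than at 360 min for 924 genes, which is 4.83% of the 19145 tested, and lower for 490 (2.56%). Of the 154 genes that rose at least 2-fold at 30 min, 141 were higher at 30 than at 360 min. Of the 16 that fell at least 2-fold 14 were lower. Both sets were picked by their 30 min ratio, which also enters the difference, so these counts largely follow from that choice. OPR3 was at 3.86 at 30 min and 0.27 at 360 min, MYB44 at 2.87 and -0.11, SOT16 at 2.19 and -0.17, and AT2G20670 at -2.01 and -0.01. LOX2, at 1.53 at 30 min and 1.73 at 360 min, did not pass the test of the difference, and VSP1 and VSP2 were lower at 30 than at 360 min, with differences of -1.70 and -1.18. The genes that rose at both times numbered 110, which is 12.7% of the 867 risen at 30 min and 18.6% of the 590 risen at 360 min, and those that fell at both numbered 61, which is 14.7% of the 415 and 7.55% of the 808. With 1 replicate of 30 min left out the difference passed for 169 to 176 genes in all.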

How the data were processed

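Wounded and control shoots were compared on 2-colour arrays at 30 min (4 arrays) and 360 min (4 arrays). Spot intensity, local background and the 0 or 1 flags were deposited as Agilent Feature Extraction 7.1.1 output, a version taken from the submitters' processing notes. The authors' log10 ratio of red over green, already background-subtracted and dye-normalized per the file headers, was turned to wounded over control, changed to log2 and used as an alternative. The transcript build behind the probes is not stated in these sources.

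Intensities were corrected with normexp (offset 50) and normalised by loess within arrays in limma 3.58.1 (R 4.3.3), with control and outlier spots at weight 0. A dye pair with an outlier spot gave no value. The mean of a dye pair was 1 replicate, called a biological replicate in the labels, so n = 2. Channel intensities are after loess and Aquantile normalisation between arrays. The 22575 spots held 1075 control spots, and genes well above background on all 4 arrays of a time, in the wounded or the control channel, were kept. Both times were fitted together with lmFit and eBayes on the log2 scale, and p-values were adjusted by the Benjamini-Hochberg method over all genes. A gene had overlapping groups where the lowest of the higher channel was below the highest of the lower. A fold against a channel not well above background on any array is a bound, "at least N-fold", taken from the dimmest signal that was. Per the file headers, Feature Extraction was run on a separate day for each dye pair, so that day cannot be told apart from replicate or time. The replicate numbers did not pair the times (correlation of deviations -0.0325).

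Genes were named from the 30 highest and 20 lowest ratios, up to 5 genes that passed per list, all genes of lists of up to 12, and up to 3 per family. Members and lists were chosen with earlier results of these data known. Genes named outside that rule, most of them quoted because they did not pass, were chosen after their values were seen. Symbols were matched to RefSeq (TAIR10.1) for 98.6% of genes. The number of arrays limits the precision.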

Additional observations from a re-analysis of the deposited data

Results flagged for a closer look

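Over all genes, 65 of the 867 that rose at 30 min fell at 360 min, and 37 of the 415 that fell at 30 min rose at 360 min. These counts did not require the test of the difference. Among the named genes, chosen in part by their ratios, 24 passed at both times in opposite directions and also passed the test of the difference. That test, of log2 folds at 30 minus 360 min, was a condition for entering this set. The largest was TCH4, for a xyloglucan endotransglucosylase, at 2.62 at 30 min and -1.02 at 360 min, a difference of 3.64 (adjusted p = 6.8e-05). The expansin-like gene EXLA1 was at 0.48 and -1.13 (difference 1.61), MSRB6, for a methionine sulfoxide reductase, at 0.98 and -0.58 (1.56), and KCS1, for a wax elongation enzyme, at 0.71 and -0.72 (1.43). EXO was at 0.81 and -0.64 (1.45) and SUR1, for the lyase of glucosinolate synthesis, at 1.00 and -0.33 (1.33). Differences of 1.4, 1.36, 1.31 and 1.19 were found for CP1 (AT5G49480), TCH2, ERD6 and sks5. MYB70, measured on 1 replicate at 360 min, differed by 1.1. PUP18 and PERK1 differed by 0.88 and 0.879, DREB26 by 0.584, RBP47B by 0.562 and AGP7 by 0.556.

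The other 8 were lower at 30 min than at 360 min. BBX14 was at -1.19 at 30 min and 0.23 at 360 min, a difference of -1.42 (adjusted p = 0.00042), and BBX15 at -0.82 and 0.38 (-1.2), and BBX17 at -0.57 and 0.53 (-1.09). PRE1 differed by -0.962, CIPK7 by -0.79, UBQ10 by -0.703, CLE16 by -0.549 and HB16 by -0.454. At 360 min HB16, UBQ10 and BBX14 were at 0.21, 0.21 and 0.23. At 30 min MYB70, AGP7 and CLE16 passed with neither replicate left out, and CLE16 was at -0.87 on the authors' log ratios.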

How the results depend on the processing

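None of the 339 named genes that passed changed sign under the alternatives compared, and 105 of them passed in all 18. Leaving out a replicate at 30 min gave 304 to 309 changed genes in place of 1282, with 235 to 269 risen in place of 867, 40 to 69 fallen in place of 415, and 169 to 176 for the difference between times in place of 1414. Fits on the wounded RNA in Cy3 alone gave 779 changed (566 risen and 213 fallen) and 502 for the difference. Arrays fitted singly, which counts both arrays of a dye pair, gave 1988 changed, 765 fallen and 2675 for the difference, and the authors' log ratios gave 716 for the difference. Risen genes made up 77.3% and 87.1% of calls without replicate 1 and without replicate 2 of 30 min, against 67.6%. At least 2-fold rises numbered 102 without background correction and 289 on the authors' log ratios, in place of 154, and falls 40 with a normexp offset of 10, 61 on the authors' log ratios and 9 without replicate 2, in place of 16. Leaving out a replicate at 360 min gave 1680 changed genes (1088 risen and 592 fallen), and 1491 to 1720 for the difference. The replicate block gave 1236 changed genes (838 risen and 398 fallen). The slide or scan as a block was not run, since each Feature Extraction day held 1 dye pair. Dim probes limit the sizes of ratios, and 91 of 339 log2 values moved by over 1.5 times on the authors' log ratios. The cause of these shifts was not tested.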

Other observations

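Families were picked here after their values were seen. Of 20 tested genes with a RABA symbol, for small GTPases of the trans-Golgi network, 5 rose and 0 fell, with RABA1c at 0.71 ± 0.12 (SD, n = 2), against 4.52% of all genes. Of 18 exocyst genes 4 rose and 0 fell, and beside EXO70H7 these included EXO70B2 at 0.65 ± 0.06 (1.03 on the authors' log ratios). The syntaxin genes SYP121 and SYP122, for membrane fusion at the plasma membrane, rose by 0.72 ± 0.09 and 0.81 ± 0.20, and no other of the 22 SYP genes passed. Of other families of membrane traffic, 3 of 29 VPS, 1 of 11 AGD and 1 of 12 PRA genes rose. These are 10.3%, 9.09% and 8.33%, against 4.52% of all genes. In the VAMP, SEC and RAB families 0 of 11, 0 of 12 and 0 of 10 genes did. None of the 5 RABA genes passed with a replicate left out, and of the 4 exocyst genes EXO70H7 alone did.

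B-box genes went both ways, with 2 of 16 higher and 4 lower. BBX14, BBX15 and BBX17 fell, at -1.19 ± 0.05, -0.82 ± 0.08 and -0.57 ± 0.04, and passed with either replicate left out, while BBX29 rose by 0.94 ± 0.15. Of 13 genes with an ERD symbol 5 rose and 0 fell, against 4.52% and 2.16% of all genes. One of them, ERD2, is an ER retention receptor gene, and the others belong to the early responsive to dehydration genes, with ERD7 at 1.56 ± 0.15 and ERD10 at 0.97 ± 0.004, and none passed with a replicate left out. NUDT7, a Nudix hydrolase gene like NUDT8, rose by 1.36 ± 0.05.

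Neighbours of risen genes rose more often than genes in such pairs did in all. In RefSeq's gene order (TAIR10.1) 63 of 13076 adjacent pairs of tested genes had both members risen, 14 both fallen and 13 opposite. Of 1210 neighbours of risen genes 10.4% rose, against 4.63% of all genes in such pairs, and of 592 neighbours of fallen genes 4.73% fell, against 2.26%. Many pairs were relatives, such as VSP2 with VSP1, AOC2 with AOC3, CML39 with CML38 and SOT18 with SOT16, whose probes may share signal. APK2, at 1.14, and CYP79B2, at 1.31, are neighbours that are not relatives, and belong to PAPS supply and to indole glucosinolate synthesis. ERF5 and NUDT8 are another such pair.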
